A study of Mus musculus with 12 samples.

Results

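The genes of the IkB family were followed in mouse resting B (RB) cells stimulated through TLR-2, CD86 and CD40. The members were Nfkbia, Nfkbib, Nfkbie, Nfkbid, Nfkbiz and Bcl3, taken as the spots whose gene name in the files equalled one of these symbols and which were not control spots. All 6 genes were on the array, with 1 probe each, so that the members were 6 of 50090 gene names and 6 of 61307 probes. RB cells were isolated from spleens of BALB/c mice, given in the labels as female and 6 weeks old and in the methods as male or female, by negative selection against CD43. The 12 one-colour arrays fell into 6 conditions of 2 arrays, which were unstimulated cells and cells given Pam2CSK4, a synthetic lipopeptide that ligates TLR-2, an antibody against the costimulatory molecule CD86 (anti-CD86), both of them (TLR2.CD86), an antibody against CD40 (anti-CD40), or anti-CD40 with Pam2CSK4. All cells were cultured for 4 h. Cells were not split by subset after the CD43 selection, and in such bulk RNA fewer cells of a type and less RNA per cell cannot be told apart. The dose of anti-CD40 was not given in the sources used here, and the isotype control antibody was not analysed here.

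IkB proteins bind dimers of NF-kB through ankyrin repeats. The classical members IkBa (Nfkbia), IkBb (Nfkbib) and IkBe (Nfkbie) hold NF-kB in the cytosol until the IkB kinases phosphorylate them and the proteasome degrades them, and their genes can be NF-kB targets themselves, so that the inhibitor is made again. The atypical members IkBNS (Nfkbid), IkBz (Nfkbiz) and Bcl-3 (Bcl3) work in the nucleus, where they adjust which NF-kB targets are transcribed, and Bcl-3 acts mainly with the p50 and p52 subunits. In B cells, TLR ligands and CD40 both lead to NF-kB, CD40 also by the non-canonical route through NIK (Map3k14) and p100 (Nfkb2).

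The values describe the brightness of one 60-base probe per gene. The probes of 3 members are shown, since their brightness is the measurement itself for the saturated member and for members of both kinds of IkB, written 5′ to 3′ as the files give them.

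Nfkbia probe: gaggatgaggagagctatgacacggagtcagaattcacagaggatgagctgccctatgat

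Nfkbib probe: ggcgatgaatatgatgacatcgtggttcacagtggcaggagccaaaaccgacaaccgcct

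Nfkbid probe: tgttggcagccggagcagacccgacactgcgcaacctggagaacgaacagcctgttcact

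Sequence around the start sites is shown because several IkB genes are known as NF-kB targets. RefSeq promoter windows (GRCm38.p6, 300 bases around a start site) were found for 5 of the 6 members, in 7 windows, since Nfkbid has 3 start sites in that table. For Nfkbia, Nfkbie and Nfkbib the 250 bases before the start site are written, and for Nfkbid and Bcl3 stretches of 30 bases around matches. The rest of the windows was searched but is not written. All are given 5′ to 3′ on the strand of the gene. Capitals mark matches on either strand to GGNNNTTCC or to the kB consensus, of which the first was chosen after the windows had been seen. Matches of both motifs overlap, and a palindromic stretch counts on both strands.

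Nfkbia, chr12:55492648-55492897, minus strand: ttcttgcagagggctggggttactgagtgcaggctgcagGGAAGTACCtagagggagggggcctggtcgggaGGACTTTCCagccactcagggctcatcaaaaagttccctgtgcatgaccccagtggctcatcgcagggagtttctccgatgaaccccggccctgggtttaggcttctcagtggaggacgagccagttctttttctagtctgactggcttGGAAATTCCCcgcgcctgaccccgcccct

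Nfkbie, chr17:45555450-45555699, plus strand: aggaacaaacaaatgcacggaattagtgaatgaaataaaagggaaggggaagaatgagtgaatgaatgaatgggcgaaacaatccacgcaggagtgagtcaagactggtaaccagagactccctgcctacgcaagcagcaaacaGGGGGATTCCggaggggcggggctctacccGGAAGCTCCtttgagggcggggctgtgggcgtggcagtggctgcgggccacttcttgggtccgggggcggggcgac

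Nfkbib, chr7:28766645-28766894, minus strand: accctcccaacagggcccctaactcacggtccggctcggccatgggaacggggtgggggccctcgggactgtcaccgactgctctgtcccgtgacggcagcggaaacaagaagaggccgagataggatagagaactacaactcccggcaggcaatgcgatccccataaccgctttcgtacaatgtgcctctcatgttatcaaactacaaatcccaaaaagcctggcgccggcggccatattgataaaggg

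Nfkbid, second start site, chr7:30422222-30422251, plus strand: acaGGAATTCCCCgtgcgcGGGGATTCCac

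Nfkbid, second start site, chr7:30422170-30422199, plus strand: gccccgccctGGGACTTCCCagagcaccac

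Bcl3, across the start site, chr7:19822734-19822763, minus strand: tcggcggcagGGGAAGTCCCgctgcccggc

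Of the 7 windows, 4 held the kB consensus, against 8.46% of 32851 RefSeq windows of the same length. GGNNNTTCC stood in 5, a number not set against all windows, since this motif was chosen after these had been seen. Nfkbid gave 3 of the 7 windows, and by gene each motif was found in 4 of the 5 members with a window. The window of Nfkbia had 4 matches to GGNNNTTCC, with the one at -29 to -21 counted on both strands. The window of Nfkbie had 2, of which the one at -105 to -97 lay inside a match to the kB consensus. In Nfkbid the matches stood at the second start site (3) and at the third (1), and there were 0 at the first. The window of Nfkbib held 0 of either motif, and that of Bcl3 held 2 matches to GGNNNTTCC, at -104 to -96 and, in the stretch shown, at 3 to 11 after the start site. A match is only a run of letters in the window, and binding was not measured.

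The authors' processed intensities were put on a log2 scale relative to the 75th percentile of each array, and all levels are in this unit. The conditions were compared with limma over 31596 probes that were well above background in at least 1 condition, and a probe was called at a Benjamini-Hochberg adjusted p under 0.05. The 7 B cell markers counted, among them Cd79a and Ms4a1, were well above background on all 12 arrays. So were 5 of 6 T cell, 6 of 6 myeloid and 3 of 4 NK cell markers. The summed NK cell markers lay between 3.21 and 3.23 in unstimulated cells and between 2.18 and 3.0 on all other arrays, the T cell sum between 3.85 and 3.87 against 3.22 to 3.77, and the myeloid sum was 3.92 to 3.94 in unstimulated cells, 3.95 to 4.17 with Pam2CSK4 and 3.20 to 3.55 with anti-CD40. Their part in the results was not tested. The arrays lay on 2 slides. Both unstimulated arrays and both with anti-CD40 and Pam2CSK4 were on slide 1, while the 4 remaining conditions were split, with replicate 1 on slide 1 and replicate 2 on slide 2. In those 4 the array on slide 2 was the lower one in 4 of 4 for Nfkbib, Nfkbid, Nfkbiz and Bcl3, so that values from a fit with the slide as a term are given where it changes a call.

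**Figure D1:**
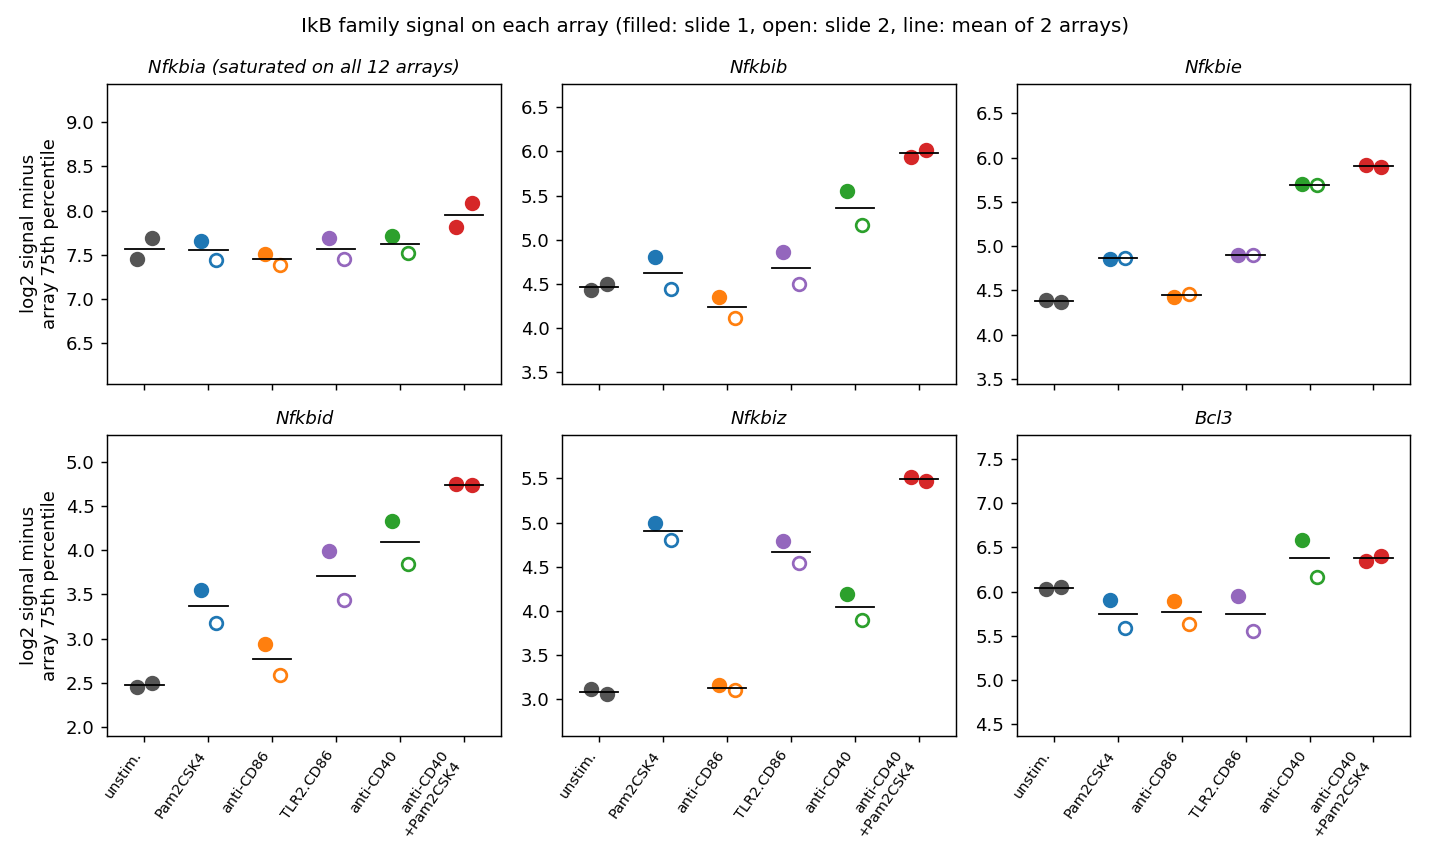
Log2 signal relative to the array's 75th percentile (y axis) of the 6 IkB genes in the 6 conditions (x axis), 1 point per array, filled for slide 1 and open for slide 2, with a line at the mean of 2 arrays. The y axis spans the same number of log2 units in every panel. Nfkbib and Nfkbie were highest with the 2 conditions that held anti-CD40, Nfkbiz with the 3 that held Pam2CSK4, and the Nfkbia spot was saturated on all 12 arrays.

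Nfkbia, the gene of the inhibitor that is degraded and resynthesised fastest after NF-kB activation, could not be compared between conditions. Its spot was saturated on 12 of 12 arrays, unstimulated cells included, with intensities of 60858 to 65976. The scaled levels were 7.46 and 7.69 in unstimulated cells, 7.66 and 7.44 with Pam2CSK4, 7.51 and 7.39 with anti-CD86, 7.69 and 7.46 with TLR2.CD86, 7.72 and 7.53 with anti-CD40, and 7.82 and 8.08 with anti-CD40 and Pam2CSK4. They are lower bounds, and the last pair came from the 2 arrays with the lowest 75th percentile (8.07 and 7.87 on the log2 scale of intensity). No fold or test is given, and the counts below are over the 5 other members.

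Nfkbie, which encodes IkBe, had the smallest standard error of the members. Its levels were 4.39 and 4.36 in unstimulated cells, 4.42 and 4.46 with anti-CD86, 4.86 and 4.87 with Pam2CSK4, and 4.90 and 4.90 with TLR2.CD86. With anti-CD40 they were 5.70 and 5.69, and with anti-CD40 and Pam2CSK4 5.91 and 5.89. In this order, from low to high, no neighbouring conditions overlapped, although the steps from unstimulated cells to anti-CD86 (0.06) and from Pam2CSK4 to TLR2.CD86 (0.03) were small. On the log2 scale, Nfkbie was raised 1.32 by anti-CD40 (SE 0.09, adjusted p = 0.000474), and 1.53 by anti-CD40 and Pam2CSK4 (adjusted p = 6.78e-05), which is 2.49-fold and 2.88-fold. With TLR2.CD86 it rose by 0.52 (adjusted p = 0.0188), and with Pam2CSK4 the difference was 0.49 (adjusted p = 0.103), which was called with the slide as a term (0.48, adjusted p = 0.00618).

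Nfkbib, which encodes IkBb, gave a level of 4.43 and 4.50 in unstimulated cells, 4.80 and 4.44 with Pam2CSK4, 4.36 and 4.12 with anti-CD86, and 4.86 and 4.50 with TLR2.CD86. With anti-CD40 the arrays gave 5.55 and 5.17, and with anti-CD40 and Pam2CSK4 5.94 and 6.02. Pam2CSK4 overlapped unstimulated cells and TLR2.CD86, anti-CD86 lay below them, and both conditions with anti-CD40 lay above all others without overlap. Nfkbib rose by 0.90 with anti-CD40 (SE 0.19, adjusted p = 0.0216) and by 1.52 with anti-CD40 and Pam2CSK4 (adjusted p = 0.00200), or 1.86-fold and 2.86-fold. Without anti-CD40 its differences from unstimulated cells ran from -0.23 to 0.22, with adjusted p from 0.484 to 0.688. The fit that included the slide called Nfkbib higher with Pam2CSK4 by 0.33 (adjusted p = 0.0286) and with TLR2.CD86 by 0.38 (adjusted p = 0.00566), and on slide 1 these arrays stood 0.34 and 0.40 above the mean of the unstimulated arrays.

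Nfkbid, which encodes IkBNS, had its lowest signal in unstimulated cells, at 2.45 and 2.50. The levels were 2.94 and 2.59 with anti-CD86, 3.56 and 3.18 with Pam2CSK4, 3.99 and 3.44 with TLR2.CD86, 4.33 and 3.84 with anti-CD40, and 4.75 and 4.73 with anti-CD40 and Pam2CSK4. Unstimulated cells lay below, and anti-CD40 with Pam2CSK4 above, every other array, while Pam2CSK4 overlapped TLR2.CD86 and TLR2.CD86 overlapped anti-CD40. Nfkbid rose by 1.24 with TLR2.CD86 (SE 0.24, adjusted p = 0.0237), by 1.61 with anti-CD40 (adjusted p = 0.00673) and by 2.27 with anti-CD40 and Pam2CSK4 (adjusted p = 0.000953), the last being 4.81-fold. The differences were 0.89 with Pam2CSK4 (adjusted p = 0.181) and 0.29 with anti-CD86 (adjusted p = 0.518). On slide 1 alone, the array of Pam2CSK4 stood 1.08 above the mean of the 2 unstimulated arrays, and a fit that included the slide gave a Pam2CSK4 difference of 1.11 (adjusted p = 0.00199) and an anti-CD86 difference of 0.51 (adjusted p = 0.00419).

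Nfkbiz, which encodes IkBz and is known as an early gene of TLR signalling, had a different order of conditions. Its levels were 3.11 and 3.06 in unstimulated cells and 3.16 and 3.11 with anti-CD86, which overlapped. They were 4.20 and 3.90 with anti-CD40, 4.79 and 4.54 with TLR2.CD86, 4.99 and 4.81 with Pam2CSK4, and 5.52 and 5.47 with anti-CD40 and Pam2CSK4, with no overlap between these. Nfkbiz rose by 1.81 with Pam2CSK4 (SE 0.14, adjusted p = 0.00494), by 1.58 with TLR2.CD86 (adjusted p = 0.00480), by 0.96 with anti-CD40 (adjusted p = 0.00646) and by 2.41 with anti-CD40 and Pam2CSK4 (adjusted p = 6.13e-05). These are 3.52-fold, 3.0-fold, 1.95-fold and 5.30-fold. With anti-CD86 the difference was 0.05 (95% interval -0.28 to 0.38, adjusted p = 0.863).

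Bcl3, the gene of the nuclear partner of p50 and p52, had the smallest range of condition means among the members that could be measured (0.63). Its levels were 6.03 and 6.06 in unstimulated cells, 5.90 and 5.59 with Pam2CSK4, 5.89 and 5.64 with anti-CD86, and 5.95 and 5.56 with TLR2.CD86. With anti-CD40 they were 6.58 and 6.17, and with anti-CD40 and Pam2CSK4 6.35 and 6.41. The 3 conditions without anti-CD40 overlapped each other and lay below unstimulated cells, and both conditions with anti-CD40 lay above. Its differences from unstimulated cells were -0.30, -0.28 and -0.29 without anti-CD40 and 0.33 and 0.33 with it (SE 0.20), with adjusted p from 0.271 to 0.459. With the slide as a term, the anti-CD40 difference was 0.50 (adjusted p = 0.00147) and that of anti-CD40 with Pam2CSK4 0.33 (adjusted p = 0.00400).

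Over the 6 conditions together, limma's F test called 4 of the 5 measured members, against 20.1% of all probes. The adjusted p was 0.000220 for Nfkbie and Nfkbiz, 0.00410 for Nfkbid, 0.00480 for Nfkbib and 0.0843 for Bcl3.

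The first question was what each single signal did. Pam2CSK4 alone raised 1 of the 5 members, Nfkbiz, against 0.0981% of all probes called higher (0.136% called in either direction), and at an unadjusted p under 0.05 the number was 3, against 15.7% of all probes. Anti-CD86 alone gave 0 calls by limma, against 2.14% of all probes, and 0 at an unadjusted p under 0.05, against 23.2%. Anti-CD40 alone raised 4 of 5, all but Bcl3, against 6.15% of all probes called higher. The median log2 fold change of the 5 members was 0.49 with Pam2CSK4, 0.05 with anti-CD86 and 0.96 with anti-CD40, and that of all probes was -0.07, -0.05 and -0.01. These comparisons share the 2 unstimulated arrays, and the call of Nfkbiz with Pam2CSK4 was lost without either of them (adjusted p of 0.0615 and 0.0766). With anti-CD40, only Nfkbie kept its call without either unstimulated array, and Nfkbib lost its call without anti-CD40 replicate 1 (adjusted p = 0.055). Without either unstimulated array, fewer of all probes were called in both comparisons as well, while without anti-CD40 replicate 1 more were called with anti-CD40. With the slide as a term, Pam2CSK4 raised 4 of 5 members, against 10.8% of all probes called in either direction in that fit. Anti-CD86 raised 1, Nfkbid, against 28.3%, and anti-CD40 raised all 5, against 37.1%. Of these calls over all probes, 43.1%, 45.5% and 42.3% were higher. Here and below, shares of all probes for fits with the slide count both directions.

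**Figure D2:**
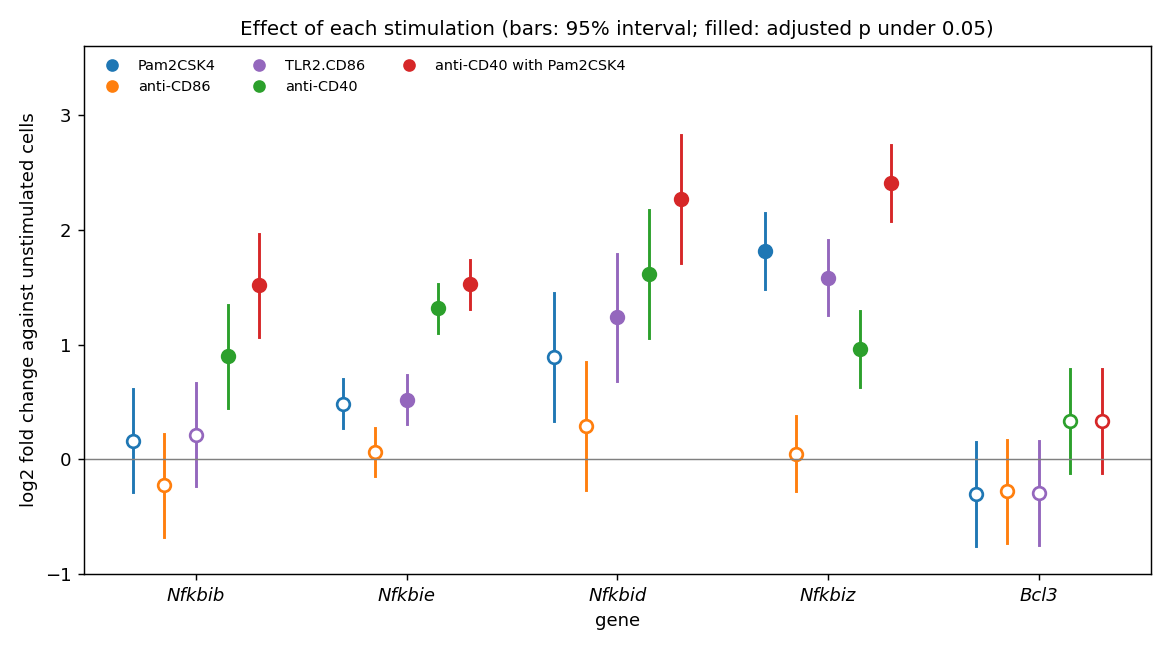
Log2 fold change against unstimulated cells (y axis) of the 5 members that were not saturated (x axis), for each of 5 stimulations (colours). Points are limma estimates, bars their 95% intervals, and filled points have an adjusted p under 0.05. Nfkbiz had its highest single-signal value with Pam2CSK4 (1.81), the other called genes with anti-CD40 (0.90 to 1.61).

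Anti-CD40 and Pam2CSK4 were set against each other directly, a comparison added after their values had been seen. Nfkbie was higher with anti-CD40 than with Pam2CSK4, by 0.83 (adjusted p = 0.00573), and Nfkbiz was lower, by a log2 difference of -0.85 (adjusted p = 0.0192), and 4.45% of all probes were called. The other differences were 0.74 for Nfkbib, 0.72 for Nfkbid and 0.63 for Bcl3 (adjusted p of 0.0786, 0.146 and 0.121). The sign of both was the same on each slide. On slide 2, the anti-CD40 array differed from the Pam2CSK4 array by 0.82 for Nfkbie and -0.91 for Nfkbiz. Without Pam2CSK4 replicate 1, Pam2CSK4 replicate 2 or anti-CD40 replicate 2, the call of Nfkbiz was lost, with adjusted p from 0.0612 to 0.0967. A fit that included the slide called all 5 members, Nfkbiz lower and the others higher with anti-CD40, against 28% of all probes.

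The second question was what CD86 and TLR-2 did together. TLR2.CD86 raised Nfkbie, Nfkbid and Nfkbiz, 3 of 5 members, against 3.39% of all probes called higher (10.6% in either direction). The median log2 fold change of the members was 0.52 and that of all probes -0.03. Without either unstimulated array these calls were lost, and without either TLR2.CD86 array only that of Nfkbiz stayed. Fewer of all probes were called in those fits as well. The count was 4 with the slide as a term, with Nfkbib in addition, against 34.9% of all probes. Against Pam2CSK4 alone, TLR2.CD86 gave 0 calls among the members by limma and 0 at an unadjusted p under 0.05, while 0.0633% and 10.3% of all probes passed. The differences, with their 95% intervals, were 0.05 (-0.39 to 0.50) for Nfkbib, 0.03 (-0.18 to 0.25) for Nfkbie, 0.34 (-0.21 to 0.90) for Nfkbid, -0.23 (-0.56 to 0.10) for Nfkbiz and 0.01 (-0.45 to 0.46) for Bcl3. With the slide as a term, 1 of them passed the test, Nfkbid at 0.34 (adjusted p = 0.0260), against 10.7% of all probes. Against anti-CD86 alone, Nfkbiz was higher by 1.53 (adjusted p = 0.00811) and no other member was called, while 0.171% of all probes were called higher. That call was lost without anti-CD86 replicate 1 (adjusted p = 0.0675), and a fit that included the slide called 4 of 5, against 7.55% of all probes.

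Anti-CD40 with Pam2CSK4 gave the highest mean level of Nfkbib, Nfkbie, Nfkbid and Nfkbiz. The mean of Bcl3 was 6.38 both here and with anti-CD40 alone, and on slide 1 the anti-CD40 array (6.58) lay above both combined arrays (6.35 and 6.41). In the fit that included the slide this Bcl3 difference was -0.17 (adjusted p = 0.113). Anti-CD40 with Pam2CSK4 raised Nfkbib, Nfkbie, Nfkbid and Nfkbiz against unstimulated cells, 4 of 5, against 8.52% of all probes called higher, with a median log2 fold change of 1.53 in the members and 0.01 in all probes. A fit that included the slide called all 5, against 47.4% of all probes. Some marker sums were also higher in this condition than in unstimulated cells. The sum of the B cell markers was 8.62 to 8.81, against 8.25 to 8.38 in unstimulated cells, that of 4 plasma cell markers 7.99 to 8.04 against 7.63 to 7.78, and that of 3 red cell markers 6.68 to 6.69 against 6.40 to 6.41. The B cell and plasma cell sums lay above those of all other arrays, and their part in the result was not tested. All sums are relative to the array's 75th percentile, which was lowest on the 2 arrays of this condition (8.07 and 7.87). Saturation of the marker spots was not counted. In TLR2.CD86 the other antibody went with the same ligand. Against it, Nfkbib, Nfkbie, Nfkbid and Nfkbiz were higher by 1.30, 1.01, 1.03 and 0.82 (adjusted p of 0.00585, 0.000843, 0.0298 and 0.00968), 4 of 5 members against 7.42% of all probes. Against Pam2CSK4 alone they were higher by 1.35, 1.04, 1.38 and 0.59 (adjusted p of 0.00559, 0.000835, 0.0122 and 0.0372), against 6.69% of all probes. Bcl3 differed by 0.63 from either (adjusted p of 0.0783 and 0.0856). All 5 members were called in both comparisons with the slide as a term, against 34.5% and 31.4% of all probes, Bcl3 by 0.46 in each (adjusted p of 0.00216 and 0.00239). Without 1 array of anti-CD40 with Pam2CSK4, TLR2.CD86 replicate 2 or Pam2CSK4 replicate 2, 1 or 2 of these 4 calls stayed in each comparison, and that of Nfkbie stayed each time. Without Pam2CSK4 replicate 1, Nfkbiz against Pam2CSK4 was not called (adjusted p = 0.0716). Against anti-CD40 alone, Nfkbiz was the only member called, higher by 1.45 (adjusted p = 0.00165), with 1.3% of all probes called higher. The differences of Nfkbib, Nfkbie and Nfkbid were 0.62, 0.21 and 0.65 (adjusted p of 0.156, 0.259 and 0.217), and a fit that included the slide called all 3, against 15% of all probes.

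Whether 2 signals together gave more or less than their sum on the log2 scale was tested as an interaction. For Pam2CSK4 with anti-CD86 the departures were 0.28 for Nfkbib, -0.03 for Nfkbie, 0.05 for Nfkbid, -0.28 for Nfkbiz and 0.29 for Bcl3. For Pam2CSK4 with anti-CD40 they were 0.46, -0.28, -0.24, -0.37 and 0.30. Limma called 0 of the 5 in either, while 0.019% and 1.15% of all probes were called, and 0 passed at an unadjusted p under 0.05, against 4.29% and 19.3%. The intervals were wide, as for Nfkbid with anti-CD40 (-1.02 to 0.55). With the slide as a term, the departure with anti-CD40 was -0.68 for Nfkbid (adjusted p = 0.0159) and -0.56 for Nfkbiz (adjusted p = 0.0330), less than the sum in both, against 8.41% of all probes called.

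**Figure D3:**
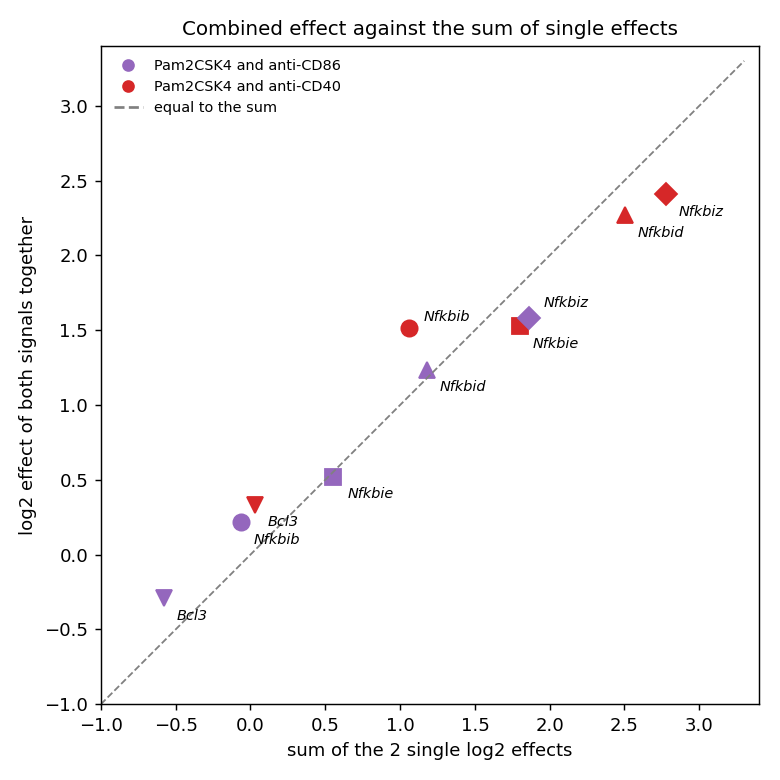
Log2 effect of both signals together (y axis) against the sum of the 2 single log2 effects (x axis), all relative to unstimulated cells, for the 5 members with anti-CD86 (purple) and with anti-CD40 (red). The dashed line marks equality, and the distances from it, between -0.37 and 0.46, are the interactions, none of them called without a term for the slide.

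Across the 12 arrays, which share conditions and scaling and are given as a description, Nfkbib, Nfkbie and Nfkbid followed each other with Pearson's r of 0.93 to 0.94. Nfkbiz correlated with Nfkbid at 0.83, with Nfkbie at 0.71 and with Bcl3 at 0.24. Of 16019 genes, the profile most like Nfkbie was that of Zbtb46 (r = 0.99), followed by Sema7a and by Il2ra, the alpha chain of the interleukin-2 receptor. For Nfkbib these were Tssc4, Rrp9 and Cd82, for Nfkbid Tmem88, Gemin4 and LOC631763, for Nfkbiz Zfp599, Dusp8 and Cx3cl1 (r of 0.98, 0.97 and 0.97), and for Bcl3 Bzw1, Sec63 and Ppp1r14b.

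The genes around the inhibitors were counted from lists. Of the 5 NF-kB subunits that IkB proteins bind, 3 rose with anti-CD40 and 3 with anti-CD40 and Pam2CSK4, against 6.15% and 8.52% of all probes called higher. Nfkb1, which encodes p105 and p50, was saturated on both anti-CD40 arrays and on 1 of 2 with anti-CD40 and Pam2CSK4, so that its rises are lower bounds, at least 1.98-fold and at least 2.53-fold (adjusted p of 0.00862 and 0.00154). Nfkb2, which encodes p100 and p52, rose by 0.82 and 1.19 (adjusted p of 0.0480 and 0.0108). Rel rose with anti-CD40 by 0.51 (adjusted p = 0.0353), and Rela with anti-CD40 and Pam2CSK4 by 0.83 (adjusted p = 0.0344). Pam2CSK4, anti-CD86 and TLR2.CD86 gave 0 calls among the subunits by limma (0.136%, 2.14% and 10.6% of all probes), and 0, 1 and 1 at an unadjusted p under 0.05 (15.7%, 23.2% and 30.4% of all probes).

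Of 8 IkB kinases and kinases upstream of them, 1 rose with TLR2.CD86, 2 with anti-CD40 and 3 with anti-CD40 and Pam2CSK4, against 3.39%, 6.15% and 8.52% of all probes called higher. Ikbke, an IkB kinase-related kinase, rose in all of these, by 1.16, 1.12 and 1.07 (adjusted p of 0.0105, 0.00496 and 0.00312). Its probe was dim, with levels of -3.38 and -3.12 in unstimulated cells. Map3k8, which is held by p105, rose by 0.75 with anti-CD40 and by 1.19 with anti-CD40 and Pam2CSK4 (adjusted p of 0.0248 and 0.00316), and Map3k14, the kinase NIK, by 0.64 with the latter (adjusted p = 0.0328). Of 8 genes of IkB degradation and binding, 0 rose and 1 fell in each of 3 comparisons, while 7.24%, 10.6% and 9.65% of all probes were called lower in them, so that 1 of 8 was near the share of all probes. The genes were Ube2d3, an ubiquitin-conjugating enzyme, at -0.71 with TLR2.CD86, Commd1 at -0.68 with anti-CD40 and Nkiras1, whose product binds IkB proteins, at -0.90 with anti-CD40 and Pam2CSK4 (adjusted p of 0.0462, 0.0272 and 0.0116).

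Of 10 other negative feedback genes of NF-kB, 3 rose with anti-CD40 and 4 with anti-CD40 and Pam2CSK4, against 6.15% and 8.52% of all probes called higher. With Pam2CSK4, anti-CD86 and TLR2.CD86, 0 were called, against 0.136%, 2.14% and 10.6% of all probes. At an unadjusted p under 0.05 the numbers were 3, 2 and 2, against 15.7%, 23.2% and 30.4% of all probes. With anti-CD40 and Pam2CSK4, Traf1 rose by 1.65, Birc3 by 1.35, Tnfaip3, which encodes the deubiquitinase A20, by 0.94 and Traf3 by 0.84 (adjusted p of 0.000302, 0.00187, 0.00445 and 0.0188). Of 14 classical NF-kB targets that were not saturated on all arrays, 4 rose with Pam2CSK4, 1 rose and 2 fell with anti-CD86, 5 rose with TLR2.CD86, 7 rose and 1 fell with anti-CD40, and 8 rose with anti-CD40 and Pam2CSK4. The shares of all probes called higher were 0.0981%, 0.946%, 3.39%, 6.15% and 8.52% in that order. With anti-CD40, 10.6% of all probes were called lower, and with anti-CD86 2.14% were called in either direction. The largest rise was that of Bcl2l1, which encodes the survival protein Bcl-xL, by 2.22, 2.28, 3.85 and 4.72 in the 4 conditions other than anti-CD86 in that order. Cd83 and Junb, 2 further targets, were saturated on all 12 arrays and are not counted.

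**Figure D4:**
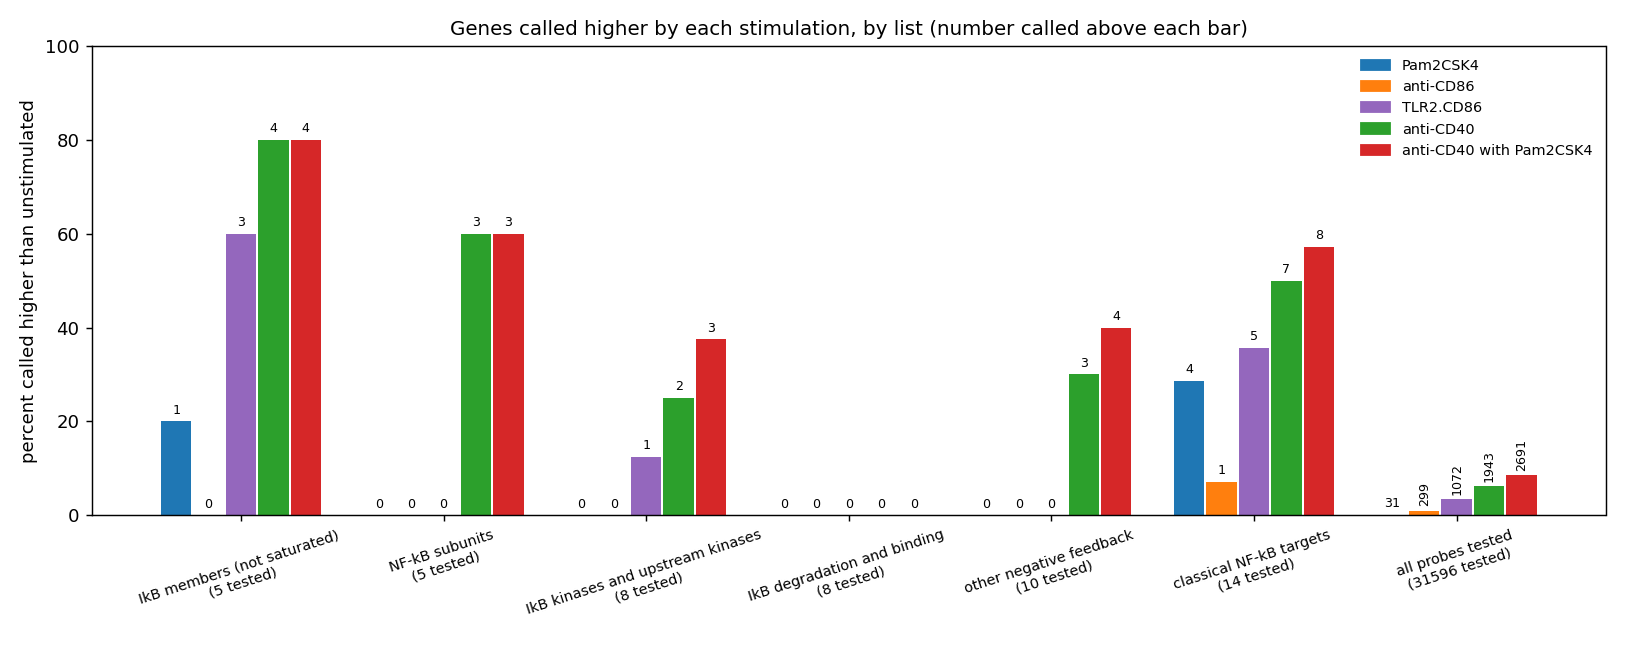
Percent of genes called higher than in unstimulated cells (y axis) in the 5 measured IkB members, in 5 lists of related genes and over all probes tested (x axis), for 5 stimulations (colours). The number called stands above each bar. The members, all probes and every list but IkB degradation and binding had their highest shares with the 2 conditions that held anti-CD40. In the list of IkB degradation and binding, 0 of 8 genes were called higher in any.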

How the data were processed

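RNA of RB cells was labelled with Cy3 and hybridised by the authors to a custom Agilent mouse array annotated to mm9. The deposited scanner files hold intensities, and the processed signal intensity, corrected for background within each array by the authors' image extraction, was used. The deposited log2 table held the same signals on a log2 scale, each array shifted by its own constant (100% of 31566 probes within 0.01) and served as an alternative. Log2 signals were taken relative to the 75th percentile of each array. Control and outlier spots were left out, saturated spots were kept, and spots of a probe were averaged. A probe was kept if some condition had both its arrays well above background (31664 probes), and 68 of these with a missing value were left out. Limma 3.58.1 (R 4.3.3) fitted all 12 arrays, with 1 coefficient per condition and Benjamini-Hochberg adjustment over 31596 probes. The script was tested on simulated data. A probe saturated on all arrays was given no fold, and one saturated in the brighter condition a lower bound. Figures and sequence searches used Python 3.11.15 and matplotlib 3.10.9.

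The genes named are the 6 members, at most 4 genes of each pathway list (those called with the highest and lowest change, and those with a role beside a member) and the 3 genes nearest to each member by Pearson's r over 12 arrays. Some genes of the marker lists are not reported here. Members and lists were chosen with earlier results of these data known. The study describes its array data as representative of biological replicates, but which arrays came from separate cultures or animals was not given, so that p-values measure the spread between these arrays, which may be technical. With 2 arrays per condition, their number limits the precision. Alternatives were median and quantile scaling, normexp background correction, the deposited table, other filters, the slide as a term, slide 1 only, the replicate number as a block, a moderation trend, the methods' one way test, and leaving out each array.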

Additional observations from a re-analysis of the deposited data

How the results depend on the processing

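Counts are of the 5 measured members called. The arrays had median log2 intensities of 4.12 to 5.68, close to their lowest values well above background (4.28 to 5.04), and median scaling moved the median of all probes by up to -0.57 (anti-CD40 against unstimulated cells). Under it, 0 members were called with Pam2CSK4, TLR2.CD86 or anti-CD40 and 2 with anti-CD40 and Pam2CSK4, against unstimulated cells, and 0 for TLR2.CD86 against anti-CD86, for anti-CD40 with Pam2CSK4 against Pam2CSK4 or TLR2.CD86, and for anti-CD40 against Pam2CSK4, and the F test called 2. Of all 31596 probes, it called 97, 132, 349 and 465 against unstimulated cells in that order, where the main fit called 43, 3358, 5280 and 5739. In the other comparisons named it called 42, 242, 282 and 129, where the main fit called 71, 3132, 3863 and 1406. Directions turned in values that were not called: Nfkbib to -0.033 with Pam2CSK4 and -0.071 with TLR2.CD86, Nfkbie to -0.075 and Nfkbiz to -0.091 with anti-CD86, and Bcl3 to -0.24 with anti-CD40, all under median scaling, and Nfkbib to -0.019 (0.34 without replicate 2) with Pam2CSK4 without Pam2CSK4 replicate 1. With the slide as a term, 4 members were called with Pam2CSK4 and 1 with anti-CD86, 1 for TLR2.CD86 against Pam2CSK4 and 4 against anti-CD86, 4 for anti-CD40 with Pam2CSK4 against anti-CD40, 5 for anti-CD40 against Pam2CSK4, and 2 for the interaction with anti-CD40. On slide 1 alone, the conditions split over the slides had 1 array each, so that no counts of calls are given. Nfkbiz with Pam2CSK4 stood 1.91 above the mean of the unstimulated arrays there. With no filter on dim probes, the counts were 1 with TLR2.CD86, 0 for TLR2.CD86 against anti-CD86, 2 for anti-CD40 with Pam2CSK4 against Pam2CSK4 and 2 against TLR2.CD86, and 0 for anti-CD40 against Pam2CSK4. Of the 61207 probes then tested, 26, 16, 927, 1217 and 175 were called in that order. Quantile scaling called 5 members for anti-CD40 against Pam2CSK4, and 2615 of 31596 probes. Leaving out 1 array, the counts ran from 0 to 1 for Pam2CSK4, 0 to 1 for TLR2.CD86, 1 to 4 for anti-CD40, 0 to 1 for TLR2.CD86 against anti-CD86, 1 to 3 for anti-CD40 with Pam2CSK4 against Pam2CSK4 and 1 to 4 against TLR2.CD86, and 1 to 2 for anti-CD40 against Pam2CSK4. Fewer of all probes were called in these fits as well when the array left out belonged to the comparison. The exception was anti-CD40 against unstimulated cells without anti-CD40 replicate 1, where more were called. The causes of these changes were not tested. Nfkbid and Nfkbiz with anti-CD40 and Pam2CSK4 against unstimulated cells, and Nfkbiz against anti-CD40 alone, kept their calls under all 15 alternatives run.

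With the replicate number as a replicate block, 5 members were called for anti-CD40 against Pam2CSK4, with 3068 of 31596 probes called. In fits with 2 arrays in every condition, no other count of members moved by over 1.5 times. In the 4 conditions split over the slides the number is that of the slide, and the replicate differences of all 6 pairs of these conditions correlated (r from 0.54 to 0.67). In the 9 other pairs r ran from -0.11 to 0.07, so that the numbers were not taken to pair all arrays, and the slide was used as the term.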
